A study of Homo sapiens with 36 samples.

Results

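Genes of sterol and fatty acid synthesis were followed in 4 cell lines of human lung cancer, all of the non-small cell kind, given an RNA aptamer against EGFR. The members are 32 named genes of the 66366 named entries kept from the files, 21 in a cholesterol branch and 11 in a fatty acid branch, and each was found by its gene name. A member was tested in a line where its mean over the 9 libraries of that line was at least 1 FPKM (fragments scaled by transcript length and by the fragments mapped in the library). That held for all 32 in H1975, H820 and A549 and for 31 in H3255, where ELOVL6 lay between 0.693 and 0.935 FPKM. Per the labels, H3255 carries EGFR L858R, H1975 carries L858R with T790M, H820 carries Ex19del with T790M, and A549 has WT EGFR. Treatment lasted 24 h and was MinE07, the anti-EGFR aptamer, or C36, a control aptamer in an extended version, or vehicle, which was DPBS with Mg2+. The aptamers were at 3 µM, every group had 3 libraries, and there were 36 libraries in all. Serum was at 1% in the treatment medium of all groups, which was RPMI for H3255, H1975 and H820 and DMEM for A549, so medium and line cannot be told apart there. Each genotype is represented by 1 line, and differences between lines cannot be told apart from differences between genotypes. The series record calls the experiments biologically independent.

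Cells adjust sterol and fatty acid synthesis through the SREBP transcription factors, which are made as membrane proteins of the endoplasmic reticulum. When sterols are scarce, the escort protein SCAP carries them to the Golgi, where the proteases encoded by MBTPS1 and MBTPS2 release the active part. INSIG proteins hold SCAP back when sterols are plentiful. The product of SREBF2 is known mainly for driving cholesterol synthesis genes and that of SREBF1 for fatty acid synthesis genes, and growth factor signalling through AKT and mTORC1 is known to raise both outputs in many tumour cells.

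The stretches of DNA upstream of 6 members are shown as examples of genes described here: FADS2, SCD, INSIG1, MSMO1 and SREBF1 fell in H3255 when MinE07 was compared with C36, and LSS rose. They are from RefSeq on GRCh38.p14, read 5′ to 3′ on the strand of the gene, and end next to an exon annotated in GENCODE. That is the start of the gene in GENCODE except for FADS2, whose gene runs there from 61792980 to 61867354. The FADS2 stretch lies within that gene, before the RefSeq start at 61816404. Another RefSeq start of FADS2, at 61816203, falls inside the stretch, and the marked match at its end lies past that start. The stretches lie in no exon annotated in GENCODE, and RefSeq exons were not checked. Capitals mark matches on either strand to CCAAT, the box bound by NF-Y, and to GGGCGG, the box bound by Sp1, a pair of factors known to act beside SREBP. INSIG1 is at chr7:155297628-155297775 on the plus strand, MSMO1 at chr4:165327419-165327622 on the plus strand, SCD at chr10:100346983-100347123 on the plus strand, FADS2 at chr11:61816154-61816255 on the plus strand, SREBF1 at chr17:17837003-17837236 on the minus strand, and LSS at chr21:46228825-46229024 on the minus strand.
INSIG1: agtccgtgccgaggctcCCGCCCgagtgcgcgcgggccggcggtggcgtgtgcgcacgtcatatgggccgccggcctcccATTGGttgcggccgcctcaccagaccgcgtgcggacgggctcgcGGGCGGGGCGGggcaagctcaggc
MSMO1: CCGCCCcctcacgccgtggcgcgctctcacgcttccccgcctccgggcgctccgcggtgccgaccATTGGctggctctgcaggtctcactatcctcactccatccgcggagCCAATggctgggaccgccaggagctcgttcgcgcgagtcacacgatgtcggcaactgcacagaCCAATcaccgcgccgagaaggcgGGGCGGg
SCD: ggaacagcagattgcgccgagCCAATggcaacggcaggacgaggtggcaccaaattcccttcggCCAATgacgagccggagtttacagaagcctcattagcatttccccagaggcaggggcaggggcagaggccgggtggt
FADS2: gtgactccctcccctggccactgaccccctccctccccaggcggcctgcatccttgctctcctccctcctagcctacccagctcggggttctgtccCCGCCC
SREBF1: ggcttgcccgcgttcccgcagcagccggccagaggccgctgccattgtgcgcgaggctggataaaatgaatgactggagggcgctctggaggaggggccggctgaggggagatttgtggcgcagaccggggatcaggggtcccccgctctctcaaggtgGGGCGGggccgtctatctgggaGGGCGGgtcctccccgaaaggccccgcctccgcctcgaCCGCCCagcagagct
LSS: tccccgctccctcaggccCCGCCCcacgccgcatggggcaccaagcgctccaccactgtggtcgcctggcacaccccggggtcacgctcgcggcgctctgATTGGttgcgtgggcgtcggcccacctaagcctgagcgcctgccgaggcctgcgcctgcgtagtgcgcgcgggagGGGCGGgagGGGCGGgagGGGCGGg

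RefSeq start windows, from 250 bases before to 50 after a gene start, were matched for 28 of the 32 members. Both strands were searched, and matches overlapped only other matches to the same motif. The NF-Y box CCAAT was in at least 1 window of 22 members (78.6%), against 39.7% of 27305 genes in the table. The Sp1 box GGGCGG was in 26 members (92.9%), against 48.3% of genes. Because 9 members have several annotated starts, the shares were also taken per window, where CCAAT was in 65% of 40 member windows against 34.6% of all windows, and GGGCGG in 85% against 45%. The E-box CACGTG was in 4 members (LSS, SC5D, INSIG1 and ELOVL5), or 14.3%, against 8.77% of genes. The sterol regulatory element core TCACNCCAC was found in 1 member, SREBF2, as TCACCCCAC from position -133 to -125, and in 1.39% of genes. These matches describe letters in a short window, and members with other forms of the element would not be counted. The 27305 genes were taken whether or not they are expressed in these lines, while the members are expressed. Shares among expressed genes were not computed, so the contrast may not be particular to the members.

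**Figure D1:**
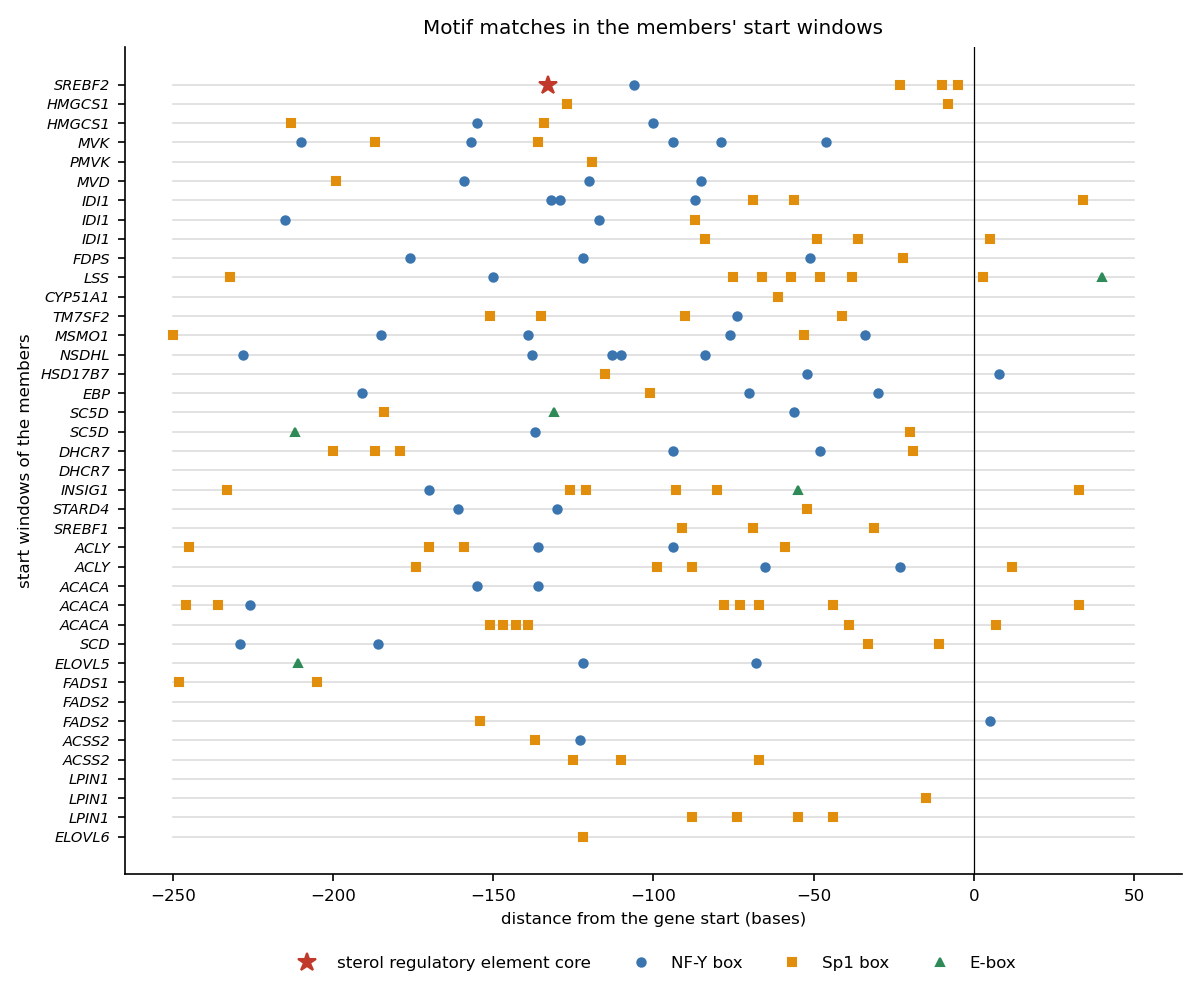
Position of each motif match, in bases from the annotated gene start, in 40 start windows of 28 members. NF-Y box matches are in 22 members and Sp1 box matches in 26, and the 1 match to the sterol regulatory element core is in SREBF2 at position -133.

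MinE07 was compared with C36 to ask which of these transcripts changed with the EGFR aptamer beyond a control aptamer. In H3255 most of the fatty acid branch and many sterol enzymes were lower. Calls here are those of limma with Benjamini-Hochberg adjustment over all genes tested, at an adjusted p under 0.05. In the cholesterol branch 9 of 21 tested members fell and 2 rose, and in the fatty acid branch 7 of 10 fell and 0 rose. Of all 13429 genes tested in H3255, 36.7% were called, 16.6% higher and 20.0% lower, so calls in this line are common. For both branches together, 58.1% of members were called and 51.6% were lower. The median log2 change was -0.10 in the cholesterol branch and -0.17 in the fatty acid branch, and -0.0092 over all genes.

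The largest fall in H3255 was in FADS2, a desaturase of polyunsaturated fatty acid synthesis. Its level was 70.8, 77.8 and 83.8 FPKM with MinE07, 103, 101 and 103 with C36 and 104, 103 and 106 with vehicle. All MinE07 libraries were below all others, and the MinE07 libraries were also the most spread. The change between the aptamers was -0.40 on the log2(FPKM + 0.5) scale used for all changes here (SE 0.051, limma adjusted p 0.000183), so the level fell by 24.3%.

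SCD, which encodes stearoyl-CoA desaturase and makes monounsaturated fatty acids, had the smallest adjusted p of the members. It was at 53.7, 53.7 and 53.6 FPKM with MinE07, 67.7, 66.9 and 66.7 with C36, and 73.3, 74.7 and 72.9 with vehicle. The 3 groups did not overlap, with MinE07 lowest and vehicle highest. The change between the aptamers was -0.32 (SE 0.026, limma adjusted p 9.29e-06), so the level fell by 19.9%.

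Other fatty acid genes fell by less in H3255. FADS1, the desaturase that acts after FADS2, was at 18.5, 19.0 and 19.1 FPKM with MinE07 and 21.4, 21.4 and 21.8 with C36 (log2 change -0.19, limma adjusted p 0.00129). FADS1 and FADS2 lie on opposite strands and share 490 exon bases in GENCODE, and the sources used here do not say whether counting used the strand. FASN, the fatty acid synthase, was at 36.7, 37.5 and 39.3 with MinE07 and 43.6, 42.1 and 43.0 with C36 (log2 change -0.18, limma adjusted p 0.00268). ACLY, which makes cytosolic acetyl-CoA from citrate, and the elongase ELOVL5 fell by 0.17 and 0.14. ACACA, LPIN1 and ACSS2 were not called, and ACACA has 2 entries in the files. ACSS2, which makes acetyl-CoA from acetate, was at 25.7, 26.3 and 27.3 FPKM with MinE07 and 24.5, 24.9 and 24.8 with C36, and ACACA at 3.11, 3.20 and 3.08 against 3.02, 2.96 and 2.93. Both had every MinE07 library above every C36 library, without a call (limma adjusted p 0.0641 for ACSS2 and 0.285 for ACACA). The vehicle libraries of ACSS2, at 25.2, 26.3 and 27.0, overlapped those of MinE07, and the vehicle libraries of ACACA, at 2.79, 2.80 and 3.01, were below them.

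SREBF1 itself fell in H3255. It was at 14.1, 14.3 and 15.1 FPKM with MinE07, 16.7, 16.1 and 16.1 with C36 and 17.2, 16.9 and 17.6 with vehicle. The groups did not overlap. The change between the aptamers was -0.16 (SE 0.036, limma adjusted p 0.00492). SREBF2 was at 43.0 to 44.7 FPKM with MinE07 and 44.0 to 45.4 with C36, and its change of -0.03 was not called (95% confidence interval -0.09 to 0.04, adjusted p 0.474).

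**Figure D2:**
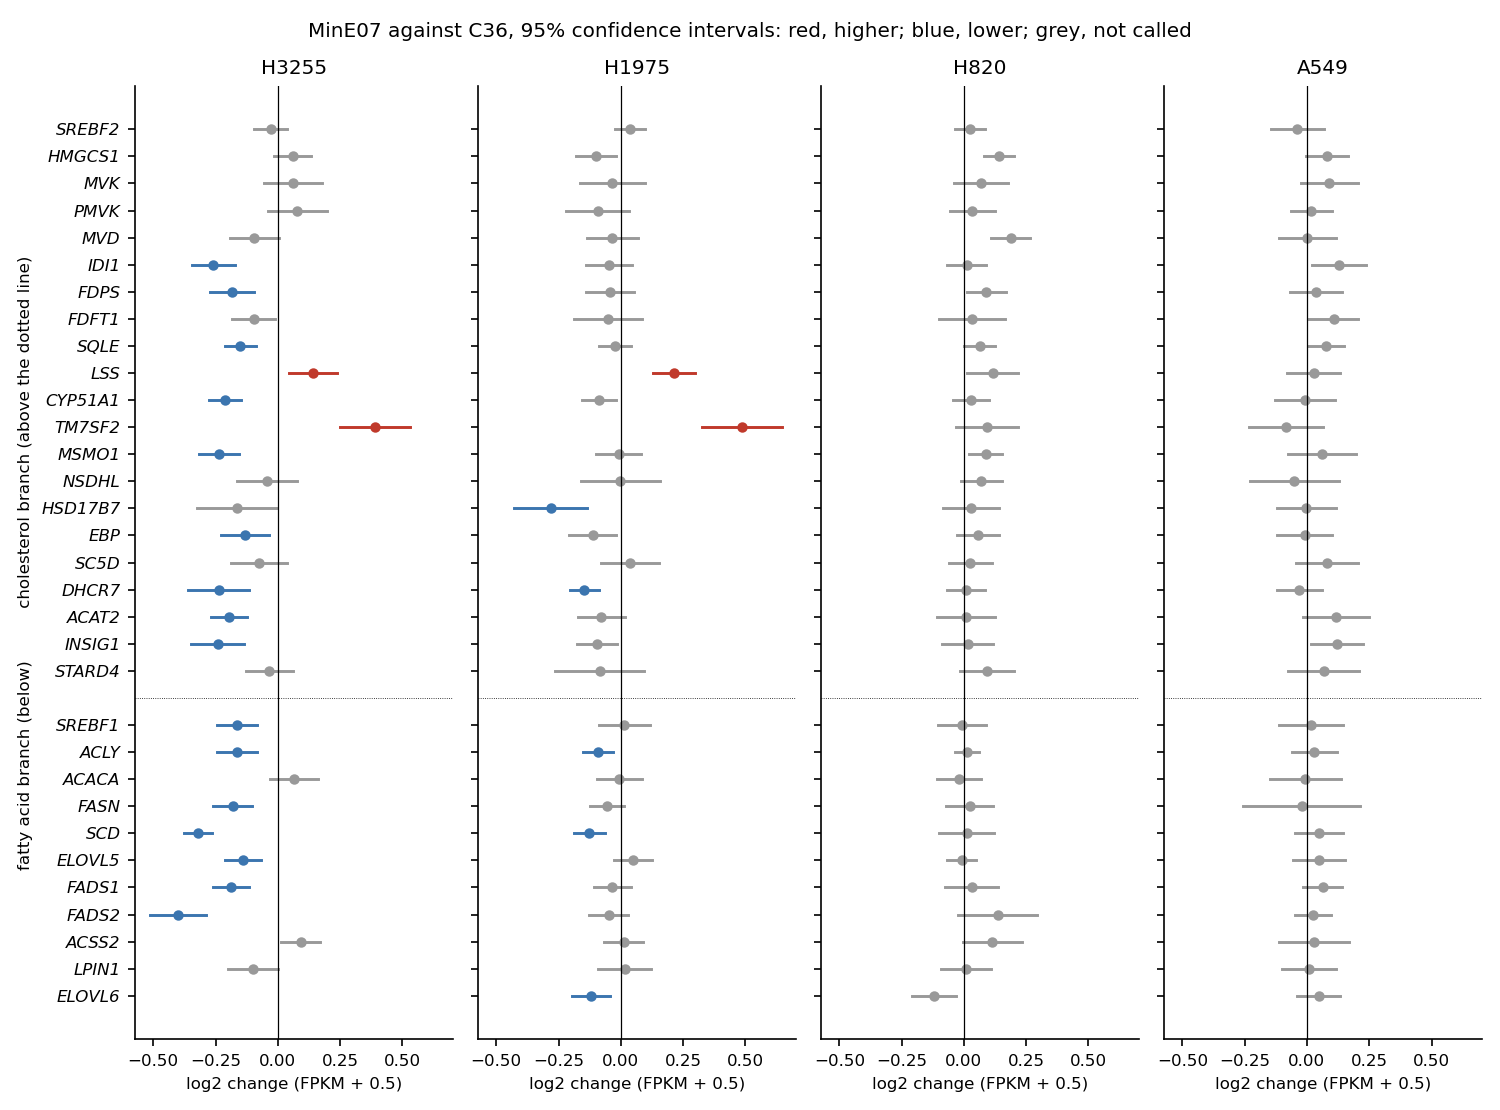
Log2 change of each tested member between MinE07 and C36, with its 95% confidence interval not adjusted for multiple tests, in the 4 lines (n = 3 libraries per group). Called changes are coloured. In H3255 they run from -0.40 (FADS2) to 0.39 (TM7SF2), H1975 has fewer, and H820 and A549 have none.

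In the cholesterol branch of H3255, the 9 members called lower with MinE07 than with C36 were ACAT2, INSIG1 and 7 enzymes from IDI1 to DHCR7. IDI1, which makes dimethylallyl diphosphate from its isomer, was at 24.0, 23.6 and 24.8 FPKM with MinE07 and 28.3, 28.8 and 29.8 with C36 (log2 change -0.26, SE 0.039, limma adjusted p 0.000513). MSMO1, which removes ring methyl groups after lanosterol is made, was at 25.9, 25.9 and 26.02 with MinE07 and 31.9, 29.2 and 30.9 with C36 (log2 change -0.24, adjusted p 0.00061). All 3 MinE07 libraries were below all 3 C36 libraries for both genes, and in MSMO1 the MinE07 libraries differed by little.

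CYP51A1, the lanosterol demethylase, was at 81.7, 80.7 and 82.9 FPKM with MinE07 and 95.9, 94.8 and 93.7 with C36 (log2 change -0.21, limma adjusted p 0.000327). It shares 2844 exon bases with a same-strand gene model in GENCODE, AC000120.2. DHCR7, which carries out a last step of cholesterol synthesis, was at 61.0, 67.6 and 73.3 with MinE07 and 79.9, 77.3 and 80.5 with C36 (log2 change -0.24, adjusted p 0.00653). The groups did not overlap for either gene. INSIG1, the sterol-sensing brake on SREBP and itself a known SREBP target, was at 34.5, 34.4 and 35.8 with MinE07, 41.2, 40.1 and 42.9 with C36 and 42.5, 45.8 and 49.1 with vehicle (log2 change between the aptamers -0.24, adjusted p 0.00315). The remaining called falls were ACAT2, the cytosolic thiolase (-0.20), FDPS, which makes farnesyl diphosphate (-0.19), SQLE, the squalene epoxidase (-0.15), and EBP, a sterol isomerase (-0.13). Exons of ACAT2 overlap those of SOD2 and TCP1 on the opposite strand.

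The mevalonate steps from HMGCS1 to MVD were not called in H3255. HMGCS1, which makes HMG-CoA, was at 48.7, 49.4 and 48.4 FPKM with MinE07 and 46.1, 46.7 and 47.7 with C36 (log2 change 0.06, limma adjusted p 0.200). All MinE07 libraries of HMGCS1 were above all C36 libraries, without a call, while the vehicle libraries, at 47.5, 51.1 and 50.7, overlapped those of MinE07. The mevalonate pathway kinases MVK and PMVK changed by 0.06 and 0.08 (adjusted p 0.406 and 0.283), and their groups overlapped. MVD changed by -0.10 (adjusted p 0.119).

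TM7SF2 and LSS were the 2 cholesterol members called higher, and HMGCS1, MVK and PMVK had changes above 0 that were not called. TM7SF2, which encodes a sterol reductase acting after lanosterol demethylation, was at 18.9, 22.5 and 21.9 FPKM with MinE07, 16.5, 15.7 and 15.7 with C36 and 16.8, 15.8 and 14.9 with vehicle. All MinE07 libraries were above all others, and the C36 and vehicle libraries overlapped. The change between the aptamers was 0.39 (SE 0.064, limma adjusted p 0.00101), 31.0% higher. LSS, the lanosterol synthase, was at 11.07, 11.02 and 12.1 with MinE07 and 10.5, 10.2 and 10.1 with C36 (log2 change 0.14, adjusted p 0.0266). Its vehicle libraries, at 10.8, 10.5 and 11.3, overlapped those of MinE07.

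The files hold a further copy of LSS, FDFT1, NSDHL and ACACA at a similar level. What the copies stand for is not stated in the sources used here, so the value of 1 entry may not be the whole level of the gene, and whether reads were split between the copies was not tested. With the copies summed, an alternative chosen after the data were seen, LSS rose by 0.20 in H3255 (limma adjusted p 0.000837), and the rise in H1975 was 0.28 (adjusted p 0.00125). FDFT1, the squalene synthase, changed by -0.10 in H3255 as listed (adjusted p 0.0744) and by -0.16 with its copies summed, where it was called (adjusted p 0.00579).

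**Figure D3:**
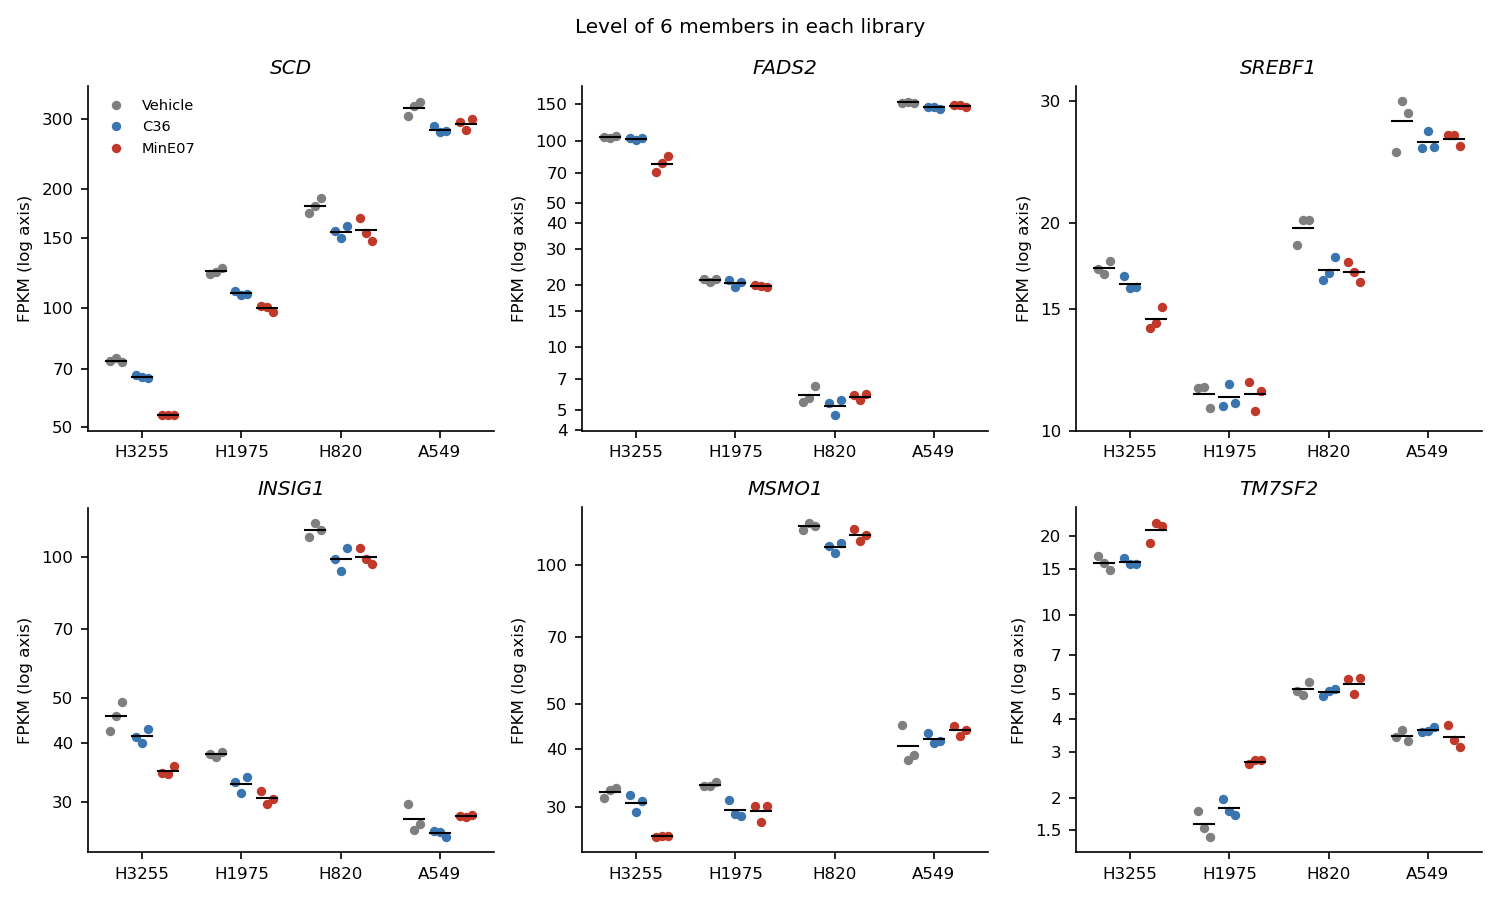
FPKM of 6 members in every library, with points for libraries and bars for group means on log axes. SCD and SREBF1 step down from vehicle through C36 to MinE07 in H3255, TM7SF2 is higher with MinE07 in H3255 and H1975.

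In H1975 fewer members moved between MinE07 and C36. In the cholesterol branch 2 of 21 rose and 2 fell, and in the fatty acid branch 3 of 11 fell and 0 rose. In all, 21.9% of members were called, beside 19.9% of 14183 genes tested (8.88% higher, 11.1% lower). The medians were -0.05 and -0.03 in the 2 branches and -0.0074 over all genes. After rescaling by medians of ratios, 7 cholesterol members were called, 2 higher and 5 lower.

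TM7SF2 had the largest change in H1975 too. It was at 2.68, 2.77 and 2.78 FPKM with MinE07, 1.98, 1.77 and 1.71 with C36 and 1.78, 1.53 and 1.42 with vehicle. MinE07 libraries were above all others, at a level far under that in H3255. The change between the aptamers was 0.48 (SE 0.072, limma adjusted p 0.00166). LSS was at 5.77, 5.44 and 5.77 with MinE07 and 4.72, 4.82 and 4.91 with C36 (log2 change 0.21, adjusted p 0.00433), with vehicle at 5.21, 5.38 and 5.23 between them.

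HSD17B7, a ketosteroid reductase of the route that has near-identical pseudogene copies, was at 5.39, 4.88 and 4.95 FPKM with MinE07 and 6.44, 5.80 and 6.59 with C36 in H1975 (log2 change -0.28, limma adjusted p 0.0148). Its call was lost without C36 replicate 1 (adjusted p 0.0536), C36 replicate 3 (0.0543), MinE07 replicate 2 (0.0505) or MinE07 replicate 3 (0.0527). DHCR7 was at 25.5, 24.8 and 24.8 with MinE07 and 28.1, 27.7 and 27.5 with C36 (log2 change -0.15, adjusted p 0.00476). SCD was at 101, 101 and 97.7 with MinE07, 110.4, 108 and 109 with C36 and 122, 124 and 126 with vehicle (log2 change between the aptamers -0.13, adjusted p 0.0109). The 3 groups of SCD were apart in the same order as in H3255.

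ELOVL6, the elongase of saturated fatty acids, was at 17.2, 16.4 and 17.0 FPKM with MinE07 and 18.4, 18.7 and 17.9 with C36 in H1975 (log2 change -0.12, limma adjusted p 0.0336). ACLY was at 40.8, 40.1 and 40.1 with MinE07 and 42.4, 43.3 and 43.4 with C36 (log2 change -0.09, adjusted p 0.0371). Both of these calls were lost without C36 replicate 1, C36 replicate 2, MinE07 replicate 2 or MinE07 replicate 3 (adjusted p 0.0619 to 0.116), which leaves SCD as the 1 fatty acid member called. The ACLY call was also lost without C36 replicate 3 (adjusted p 0.109) or MinE07 replicate 1 (0.0624), so that no aptamer library of H1975 could be left out. SREBF1 (0.01, adjusted p 0.875), SREBF2 (0.04, 0.390) and INSIG1 (-0.10, 0.0858) were not called in H1975. INSIG1 was at 31.6, 29.7 and 30.5 with MinE07, 33.1, 31.4 and 33.9 with C36 and 38.0, 37.4 and 38.4 with vehicle, and the 2 aptamer groups overlapped.

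In H820 and A549 no member was called between MinE07 and C36 in limma. In H820 7 of 32 members had an unadjusted p under 0.05, beside 1396 of 13753 genes. The smallest limma adjusted p of a member was 0.218, and 0.0364% of all genes were called. The cholesterol branch median was 0.06 and that of all genes 0.0067. SREBF1, SREBF2 and INSIG1 changed by -0.0082, 0.03 and 0.01. In A549 4 of 32 members had an unadjusted p under 0.05, beside 1455 of 13425 genes. The smallest limma adjusted p of a member was 0.408, and 0.0% of all genes were called. SREBF1, SREBF2 and INSIG1 changed there by 0.02, -0.04 and 0.12. INSIG1 in A549 was at 28.0, 27.8 and 28.1 FPKM with MinE07, 26.01, 25.8 and 25.3 with C36 and 29.7, 26.1 and 26.9 with vehicle, so that the vehicle group spanned both aptamer groups.

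Interaction terms in a fit of all 36 libraries compared the effect of MinE07 over C36 from line to line. That fit kept genes by their mean over all 36 libraries, so ELOVL6 is among the 32 members for H3255 too, though under 1 FPKM there. Between H3255 and A549, 15 of 32 members differed, 14 of them lower and 1 higher in H3255, beside 25.2% of all genes (11.3% higher, 14.0% lower). The largest differences were in TM7SF2 (0.47, SE 0.096, limma adjusted p 0.000489) and FADS2 (-0.43, SE 0.074, adjusted p 6.67e-05). SCD differed by -0.37, IDI1 by -0.39 and INSIG1 by -0.36. For SREBF1 the difference of -0.18 was not called (adjusted p 0.0504). Between H1975 and A549, 8 differed, 2 higher and 6 lower in H1975, beside 12.6% of genes (5.75% higher, 6.88% lower). TM7SF2 led with 0.57 (adjusted p 0.000179), followed by HSD17B7 with -0.28 (adjusted p 0.0452). That count fell to 2 without A549 MinE07 replicate 3 or H1975 C36 replicate 1, to 3 without H1975 MinE07 replicate 3, to 4 without A549 C36 replicate 2, A549 C36 replicate 3 or H1975 MinE07 replicate 2, and to 5 without H1975 C36 replicate 3. The HSD17B7 difference was lost without each library of the 4 groups except A549 C36 replicate 3, H1975 C36 replicate 2 and H1975 MinE07 replicate 1 (highest adjusted p over all alternatives 0.110).

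Between the 2 lines with L858R, 8 members differed, 7 lower and 1 higher in H3255 than in H1975, beside 15.2% of genes (6.74% higher, 8.48% lower). FADS2 differed by -0.35 (SE 0.074, limma adjusted p 0.00102) and MSMO1 by -0.23 (adjusted p 0.0129). In H1975 FADS2 was at 20.0, 19.8 and 19.5 FPKM with MinE07 and 21.3, 19.6 and 20.7 with C36, and MSMO1 at 27.9 to 30.2 against 28.7 to 31.0, with overlap in both. Without H1975 MinE07 replicate 1 the count was 5. Between H820 and A549, 0 members differed in limma (smallest adjusted p 0.164), beside 0.323% of genes. An unadjusted p under 0.05 was found for 2 members and for 1791 of 14572 genes.

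Both aptamers were also compared with vehicle, and these comparisons share libraries with those between the aptamers. In H3255 with MinE07 against vehicle, 13 of 21 cholesterol members fell and 2 rose, and 8 of 10 fatty acid members fell, beside 38.6% of all genes called (21.4% higher, 17.2% lower). Rescaling by medians of ratios moved the split over all genes from 2872 higher and 2315 lower to 2183 higher and 3377 lower. SCD fell by 27.0% (log2 change -0.45, limma adjusted p 7.98e-07) and FADS2 fell by 25.6% (log2 change -0.43, adjusted p 0.000112). With C36 against vehicle 0 members were called in limma, beside 0.305% of all genes. An unadjusted p under 0.05 was found for 9 of 31 members and for 2136 of 13429 genes. Of the members, 25 of 31 changes were below 0, and the median over all genes was 0.022. SCD changed by -0.13 with C36 (adjusted p 0.0644) and FADS2 by -0.03 (adjusted p 0.842).

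In H1975 with MinE07 against vehicle, 12 of 21 cholesterol members fell and 1 rose, and 4 of 11 fatty acid members fell, beside 23.7% of all genes (10.8% higher, 12.9% lower). TM7SF2 was higher by 0.65 (limma adjusted p 0.000427) and SCD was lower (log2 change -0.31, adjusted p 0.000156). With C36 against vehicle SCD was the 1 member called (-0.18, limma adjusted p 0.0419), beside 0.233% of genes. An unadjusted p under 0.05 was found for 19 of 32 members and for 2032 of 14183 genes. Of the members, 26 of 32 changes were below 0, and the median over all genes was 0.0048. The SCD call was lost without any 1 library of the line except vehicle replicate 1 (adjusted p up to 0.182). Without vehicle replicate 1, 2 cholesterol members were called as well. The mean log2 value of the cholesterol branch, set against vehicle, was -0.11 to -0.07 in the C36 libraries of H1975 and -0.14 to -0.08 in the MinE07 libraries, which overlapped.

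**Figure D4:**
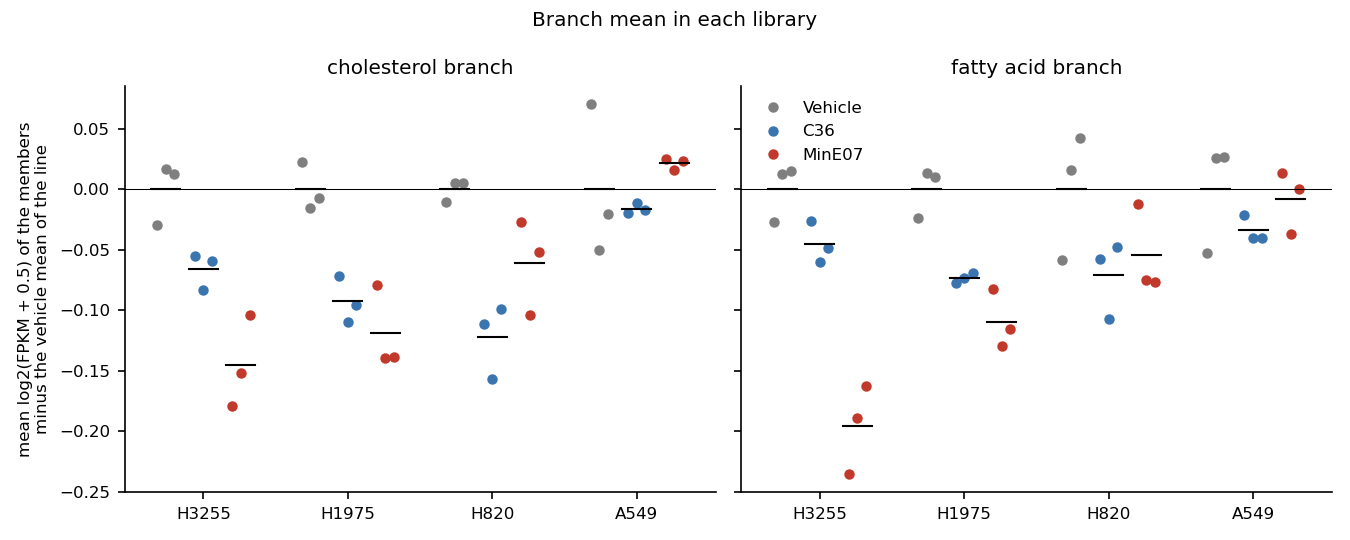
Mean log2(FPKM + 0.5) of each branch in every library, minus the vehicle mean of its line, with bars for group means. Fatty acid branch values with MinE07 in H3255 lie from -0.24 to -0.16, under all C36 (-0.06 to -0.03) and vehicle libraries. In H820 both aptamer groups are below vehicle in the cholesterol branch, and in A549 1 vehicle library lies apart at 0.07.

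In H820 more members were called for C36 against vehicle than for MinE07 against vehicle. With C36 against vehicle 8 of 21 cholesterol and 2 of 11 fatty acid members fell and 0 rose, beside 2.85% of all genes called (1.56% higher, 1.29% lower). MVD, which decarboxylates mevalonate diphosphate, was at 26.4, 26.5 and 25.1 FPKM with C36, 29.6, 28.5 and 30.9 with MinE07 and 30.3, 31.9 and 31.0 with vehicle (log2 change with C36 -0.25, limma adjusted p 0.00791). MVK, the mevalonate kinase, was at 10.2, 9.57 and 10.5 with C36, 10.9, 10.6 and 10.2 with MinE07 and 11.3, 12.5 and 12.6 with vehicle (-0.25, adjusted p 0.0252). C36 was under vehicle in every library for both genes. MVK shares 306 exon bases with MMAB on the opposite strand.

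The count of 8 cholesterol members in H820 was 2 without C36 replicate 1, C36 replicate 2 or vehicle replicate 2, and 3 without vehicle replicate 1 or vehicle replicate 3. The count of 2 fatty acid members, SREBF1 and SCD, was 0 without C36 replicate 1, C36 replicate 2, MinE07 replicate 2, vehicle replicate 2 or vehicle replicate 3, and 1 without C36 replicate 3 or vehicle replicate 1. The call of MVK was lost without C36 replicate 1 (adjusted p 0.0828), C36 replicate 2 (0.0926), vehicle replicate 2 (0.0981) or vehicle replicate 3 (0.0727). With MinE07 against vehicle 9 of 32 members and 2570 of 13753 genes had an unadjusted p under 0.05. Only 1 member was called, beside 3.02% of genes. It was SREBF1, at 17.6, 16.9 and 16.4 FPKM with MinE07, 16.5, 16.9 and 17.8 with C36 and 18.6, 20.2 and 20.2 with vehicle (log2 change -0.20, limma adjusted p 0.0362), and both aptamer groups were under vehicle. That call was lost without C36 replicate 2, MinE07 replicate 2 or 3, or vehicle replicate 2 or 3 (adjusted p 0.0558 to 0.120). Without MinE07 replicate 1, 2 fatty acid members were called, and without C36 replicate 2 or 3, MinE07 replicate 1 or vehicle replicate 1, 1 cholesterol member was. Whether MinE07 and C36 differed in their effect there is the comparison between the aptamers, in which 0 members were called.

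In A549 with MinE07 against vehicle 0 members were called in limma, beside 0.216% of genes. An unadjusted p under 0.05 was found for 5 of 32 members and for 1865 of 13425 genes. With C36 against vehicle 2 members were called, 1 higher and 1 lower, beside 6.0% of genes (3.62% higher, 2.38% lower). SCD was at 289, 278 and 281 FPKM with C36 and 307, 325 and 333 with vehicle (log2 change -0.18, limma adjusted p 0.0381), with MinE07 at 295, 283 and 301. HMGCS1 was at 68.1, 67.6 and 69.6 with C36, 73.2, 70.9 and 72.9 with MinE07 and 63.5, 59.0 and 62.3 with vehicle (log2 change with C36 0.15, adjusted p 0.0463). Both aptamer groups were above vehicle for HMGCS1 and below it for SCD. The HMGCS1 call was lost without any 1 library of the line except vehicle replicate 1, and after rescaling (adjusted p 0.0616). The SCD call was lost without C36 replicate 1, 2 or 3, MinE07 replicate 1, or vehicle replicate 2 or 3 (adjusted p 0.0665 to 0.137). A549 vehicle replicate 1 stood apart, with a cholesterol branch mean at 0.07 and a fatty acid branch mean at -0.05 on the log2 scale set against the group mean, and FASN at 30.4 FPKM against 40.8 and 40.9 in the other vehicle libraries. Without it, 2 cholesterol members were called with MinE07 and 3 fatty acid members with C36.

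Levels of the members differed between lines by 1.18- to 25.97-fold in vehicle. There, the summed FPKM of the cholesterol branch was 942 ± 14.3 in H820 (SD, n = 3), 639 ± 13.6 in H3255, 569 ± 27.8 in A549 and 511 ± 8.38 in H1975. That of the fatty acid branch was 808 ± 23.9 in A549, 469 ± 15.03 in H820, 429 ± 5.08 in H3255 and 349 ± 5.39 in H1975. H820 had the highest vehicle mean for 10 of 21 cholesterol members and A549 for 5 of 11 fatty acid members. Against the mean of the other lines, 31 of 32 members were called in H3255 (beside 87.8% of all genes), 31 in H1975 (beside 84.4%), 29 in H820 (beside 85.8%) and 30 in A549 (beside 86.4%). This fit kept genes by their mean over all 36 libraries, so ELOVL6 was tested for H3255 though under 1 FPKM there. Genes high in only 1 line pass in the same way, and a call between lines is then close to given. In H820, 21 of the 29 were higher and 8 lower, while over all genes 39.1% were higher and 46.7% lower. In H1975, 8 of the 31 were higher and 23 lower, against 51.8% and 32.6% of all genes.

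FADS2 had the widest range across lines, 25.97-fold. In vehicle it was at 153, 154 and 152 FPKM in A549, 104, 103 and 106 in H3255, 21.4, 20.7 and 21.5 in H1975 and 5.47, 5.70 and 6.51 in H820, with no overlap between neighbours in that order. ELOVL6 ran from 19.4 ± 0.659 FPKM in H1975 (SD, n = 3) through 7.15 ± 0.373 in H820 and 6.08 ± 0.0805 in A549 to 0.897 ± 0.0329 in H3255, a 21.6-fold range in which H3255 is under the level for testing. TM7SF2 was at 15.8 ± 0.949 in H3255, 5.20 ± 0.298 in H820, 3.44 ± 0.179 in A549 and 1.58 ± 0.188 in H1975, 10.0-fold. HSD17B7 varied least, 1.18-fold, and its neighbours in the order of lines all overlapped.

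The most abundant member also changed with the line. In the cholesterol branch it was CYP51A1 in H3255 (97.5 FPKM), FDPS in H1975 (68.7), SQLE in H820 (144) and HMGCS1 in A549 (61.6). In the fatty acid branch it was FADS2 in H3255 (104) and SCD in H1975 (124), H820 (181) and A549 (321). The lowest were NSDHL (4.82) and ELOVL6 in H3255, TM7SF2 in the cholesterol branch of the other 3 lines, ACACA in H1975 (4.99) and A549 (3.98), and FADS2 in H820 (5.89). FPKM values are per length and allow this comparison between genes, except that ACACA, NSDHL, LSS and FDFT1, which have further copies, may be understated. In A549 vehicle FDFT1 was at 31.7 FPKM as listed and its further copy at 37.1, so the top rank of HMGCS1 there holds for single entries. CYP51A1 shares 2844 exon bases with AC000120.2 on the same strand, and what this does to its level was not tested.

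**Figure D5:**
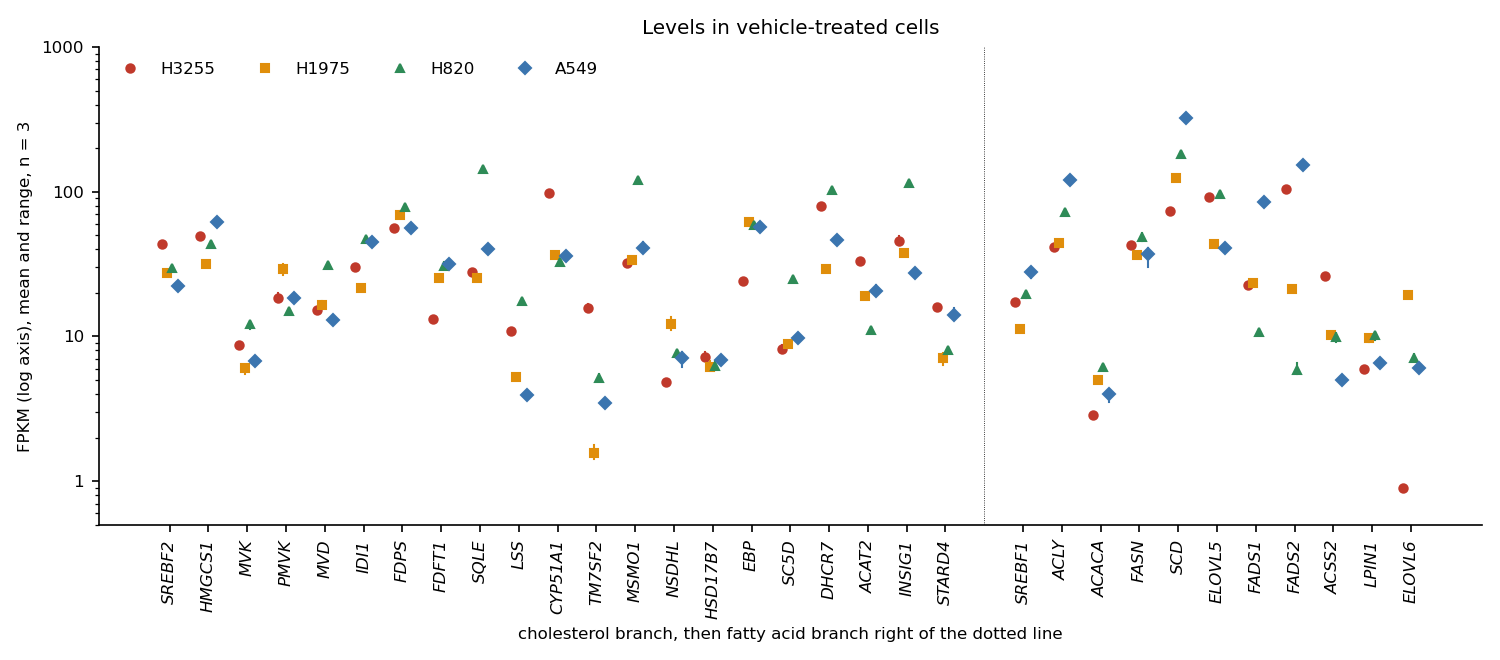
Vehicle FPKM of all 32 members in the 4 lines on a log axis, as mean and range of 3 libraries. FADS2, ELOVL6 and TM7SF2 span 25.97-, 21.6- and 10.0-fold between lines, while HSD17B7 spans 1.18-fold.

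Genes around the pathway, in 5 lists, were read in the same fits between MinE07 and C36. Their counts stand beside 36.7% of all genes called in H3255 (16.6% higher, 20.0% lower) and 19.9% in H1975 (8.88% higher, 11.1% lower). Of 8 genes for SREBP processing and turnover, 1 rose and 2 fell in H3255 and 1 rose and 1 fell in H1975, shares near those of all genes. MBTPS1, the first SREBP protease, was at 20.4, 21.08 and 20.96 FPKM with MinE07 and 17.3, 17.9 and 17.3 with C36 in H3255 (log2 change 0.24, limma adjusted p 0.000132), and changed by 0.11 in H1975 (adjusted p 0.0281, lost without C36 replicate 1, 2 or 3 or MinE07 replicate 1 or 3, up to 0.104). MBTPS2 changed by -0.15 in H3255 (adjusted p 0.0456, lost without C36 replicate 1, 2 or 3, MinE07 replicate 2 or 3, or vehicle replicate 2 or 3, up to 0.162). UBE2G2, an enzyme of sterol-regulated protein degradation, fell by 0.25 in H1975 (adjusted p 0.00166) and by 0.11 in H3255 (adjusted p 0.0486).

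In the non-sterol isoprenoid branch, which uses mevalonate products for ubiquinone, dolichol and protein prenylation, 2 of 10 genes fell in H3255 (beside 20.0% of all genes) and 1 of 10 in H1975 (beside 11.1%), again near the shares of all genes. They were NUS1 (-0.15) and COQ2 (-0.18, limma adjusted p 0.0217, lost without C36 replicate 1 or 3 or MinE07 replicate 2, up to 0.0841) in H3255 and PDSS1 (-0.40, adjusted p 0.00619) in H1975. Of the genes of sterol trafficking, storage and the LXR response, 4 of 13 rose and 3 fell in H3255, beside 16.6% and 20.0% of all genes. The changes in H3255 were below 0 for 7 of the 13, with a median of -0.0027 (-0.0092 over all genes). MYLIP and ABCG1, described below, had the largest called changes there and do not stand for the list. In H1975 0 of 13 were called in limma, beside 19.9% of all genes. An unadjusted p under 0.05 was found for 2 of 13 and for 4817 of 14183 genes. MYLIP, an LXR target that directs lipoprotein receptors to degradation, was at 5.80, 5.68 and 6.13 FPKM with MinE07 and 3.96, 4.33 and 3.71 with C36 in H3255 (log2 change 0.50, adjusted p 0.000179). ABCG1, a sterol exporter and LXR target, was at 1.48, 1.46 and 1.403 with MinE07 and 1.17, 1.03 and 0.976 with C36 (0.32, adjusted p 0.00263). MinE07 libraries were above all C36 libraries for both.

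In the list of fatty acid activation and oxidation, the route that breaks fatty acids down, 6 of 12 rose and 2 fell in H3255, beside 16.6% and 20.0% of all genes (median 0.09 against -0.0092 over all genes). In H1975 5 of 12 rose and 1 fell, beside 8.88% and 11.1% of all genes (median 0.11 against -0.0074). CPT1A, which admits fatty acids to mitochondria, was at 13.4, 13.8 and 14.0 FPKM with MinE07 and 10.8, 10.4 and 10.8 with C36 in H3255 (log2 change 0.35, limma adjusted p 2.53e-05), and rose by 0.20 in H1975 (adjusted p 0.00252). The acyl-CoA synthetase ACSL4 fell by 0.20 in H3255, and ACSL1 rose by 0.21 in H1975. Among genes of acyl supply and glycerolipid assembly, 3 of 14 rose and 1 fell in H3255, beside 16.6% and 20.0% of all genes, and 1 of 13 rose in H1975, beside 8.88%. IDH1, a cytosolic source of NADPH, was at 157, 161 and 157 with MinE07 and 97.3, 96.3 and 100.8 with C36 in H3255 (0.69, adjusted p 1.77e-07), and rose by 0.27 in H1975 (adjusted p 0.00177). The elongase ELOVL7 rose by 0.22 in H3255. No gene of the 5 lists was called in H820 or A549.

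All 6 epithelial markers were above 1 FPKM in each line. Of 5 immune markers, CD68 was above it in each line and CD14 in all but H3255, and of 6 endothelial and fibroblast markers only COL1A1 reached it, in H3255 and H1975. The summed epithelial markers were at 1895 to 1948 FPKM with MinE07, 2060 to 2105 with C36 and 2179 to 2254 with vehicle in H3255, so that they moved with treatment as the members did, and their part in the result was not tested. EGFR in H3255 was at 336 to 347 FPKM with MinE07 and 414 to 436 with C36. In these bulk samples fewer cells with a transcript and less transcript per cell cannot be told apart. The files hold no counts and only relative depth could be computed, which ran from 0.590 to 1.385 of the median library.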

How the data were processed

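Polyadenylated RNA of 36 cell line libraries was sequenced as paired reads of 100 bases. The files hold the authors' FPKM per gene, and the submitters' processing notes name HISAT2, Cuffdiff, GRCh38.p12 and hg38. Their versions, the annotation and whether strand was used: not given in the sources used here. Each file has 68271 entries. Entries with no gene name (1874, at most 0.00279% of a library's summed FPKM) and 31 repeated entries of 15 names (at most 0.00249%) were left out, which leaves 66366. Of these, 7486 are further copies of 4334 names and were kept as separate entries. Summed FPKM ran from 362928 to 449811 and genes above 1 FPKM from 13236 to 14267 per library. Counts were not used and total depth is unknown. Relative depth, from the most common ratio of low values between libraries, spanned 2.35-fold.

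The members and gene lists were chosen with earlier results of these data known. Each line's 9 libraries were fitted with limma 3.58.1 (R 4.3.3, with trend and robust settings, statmod 1.5.0) on log2(FPKM + 0.5), for genes with a mean of at least 1 FPKM over the libraries of the fit. This scale understates the change of low genes. Tests are two-sided, with Benjamini-Hochberg adjustment over all genes of the fit and a call at an adjusted p under 0.05. Differences between lines came from 1 fit of 36 libraries with 4 interaction terms and a term for each line's vehicle. The labels do not say that libraries with the same number were made together, so the reported fits have no replicate block, and a block was tried as an alternative. If replicates share a source, the p-values measure only the spread between these libraries. On simulated data with 13330 genes for MinE07 against C36 in H3255, 63.3% of 98 genes changed by 0.3 (log2) and 93.6% of 94 changed by 1 were recovered, with 7 false calls. Only these genes were changed there, with noise drawn apart for each gene, whereas 36.7% of genes were called in the data. The adjustment depends on that share, so these rates need not hold for the data.

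Alternatives were pseudocounts of 0.1 and 1, no filter, rescaling by medians of ratios, a replicate block, a fit of all 36 libraries, further copies left out, further copies summed (chosen after the data were seen) and leaving out each library. By a fixed rule, the genes named are SREBF1, SREBF2 and INSIG1, the called members with the largest changes (up to 6 cholesterol and 4 fatty acid members per line between the aptamers, 2 per line against vehicle and 2 per interaction term), members at the extremes of vehicle level, and up to 2 called genes per list and line. The other genes named, among them the remaining called members in H3255, HMGCS1, PMVK and ACSS2, were chosen after their values were seen. Positions and exon overlaps are from GENCODE 29, and start windows are from RefSeq on GRCh38.p14.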

Additional observations from a re-analysis of the deposited data

Results flagged for a closer look

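These results stand out because the lines differed in their response to MinE07 over C36 by the interaction term itself (limma, adjusted p under 0.05). Between H3255 and A549, 15 of 32 members differed, beside 25.2% of all genes, among them TM7SF2 by 0.47 and FADS2 by -0.43. Between H1975 and A549, 8 differed, beside 12.6% of all genes, among them TM7SF2 by 0.57 and HSD17B7 by -0.28. That count was 2 without A549 MinE07 replicate 3 or H1975 C36 replicate 1. The HSD17B7 difference (adjusted p 0.0452) kept its call in 8 of 19 alternatives and lost it, among others, with no filter (0.107) and with a replicate block (0.0530). Between H3255 and H1975, 8 differed, beside 15.2% of all genes, among them FADS2 by -0.35 and MSMO1 by -0.23, and the count was 5 without H1975 MinE07 replicate 1.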

How the results depend on the processing

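Of 60 results on single genes, 43 kept their direction and call under each alternative run. Of 248 counts of members called under alternatives that left no library out, 40 were over 1.5 times from the value reported. The counts for MinE07 against C36 in H3255 (11 and 7) and for MinE07 against vehicle in H3255 and H1975 were not among them. Cholesterol counts come first in what follows. Rescaling gave 3 and 1 for C36 against vehicle in H3255, 7 cholesterol members for MinE07 against C36 and 2 for C36 against vehicle in H1975, 1 cholesterol member for MinE07 and 1 fatty acid member for C36 against vehicle in H820, and 1 cholesterol member for MinE07 against vehicle in A549. With no filter there was 1 fatty acid member for MinE07 against C36 and 0 for C36 against vehicle in H1975, 0 for MinE07 against vehicle and 1 and 0 for C36 against vehicle in H820, 0 and 0 for C36 against vehicle in A549, and 3 members between H1975 and A549. The fit of all 36 libraries gave, against vehicle, 1 and 1 for C36 in H3255, 5 cholesterol members for C36 in H1975, 1 and 2 for MinE07 in H820, 2 and 1 for MinE07 in A549 and 4 and 2 for C36 in A549. With further copies left out or summed, C36 against vehicle in H1975 gave 1 and 2 cholesterol members, MinE07 against vehicle in H820 gave 1 and 2 members of the branches under both, and MinE07 against vehicle in A549 gave 1, as it did with a pseudocount of 0.1.

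Correlations of deviations between same-numbered libraries ran from -0.163 to 0.246, and not all exceeded 0.1 in any comparison. Libraries with different numbers were not correlated for reference, so this check cannot settle whether replicate numbers pair the libraries. With a replicate block there was 1 fatty acid member for MinE07 against C36 and 0 for C36 against vehicle in H1975, 0 for MinE07 against vehicle and 2 and 0 for C36 against vehicle in H820, and 0 and 0 for C36 against vehicle in A549. The block also ended the calls between the aptamers of MBTPS2 in H3255 (adjusted p 0.0526) and of ELOVL6 (0.0623), ACLY (0.0607) and MBTPS1 (0.0555) in H1975. Against vehicle it ended those of SCD in H1975 (0.106) and A549 (0.0852), HMGCS1 in A549 (0.0784), and SREBF1 (0.0814) and MVK (0.0719) in H820. With no filter these calls were lost too (0.0745 to 0.164), as were those of COQ2 in H3255 (0.0902), HSD17B7 in H1975 (0.0716) and MVD in H820 (0.0651).

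Leaving out each library gave ranges, cholesterol first. In H3255 they were 9 to 11 and 7 to 8 for MinE07 against C36, and 12 to 16 and 7 to 8 for MinE07 against vehicle. In H1975 they were 3 to 5 and 1 to 3, then 10 to 13 and 3 to 4, and 0 to 2 and 0 to 1 for C36 against vehicle. In H820 they were 0 to 1 and 0 to 2 for MinE07 and 2 to 7 and 0 to 2 for C36 against vehicle, and in A549 0 to 2 and 0, and 0 to 1 and 0 to 3. Differences between lines ran from 15 to 17 (H3255 and A549), 2 to 8 (H1975 and A549) and 5 to 9 (H3255 and H1975). SREBF1 changed sign in H1975 without C36 replicate 1 (-0.0057) or MinE07 replicate 1 (-0.016) and in H820 without C36 replicate 3 (0.022) or MinE07 replicate 3 (0.015), and INSIG1 in H820 without C36 replicate 2 (-0.027) or MinE07 replicate 1 (-0.016); none of these was called. Their ranges over all alternatives, with left-out libraries among them, were -0.016 to 0.051, -0.032 to 0.022 and -0.027 to 0.055. INSIG1 in H1975 was called after rescaling (adjusted p 0.0441) and without C36 replicate 2 (0.0492). The cause was not tested for any of these. With 3 libraries a group and no counts, counting error could not be separated from other spread.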
